A study of Mus musculus with 12 samples.

Results

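The miR-130 and miR-301 family was followed in 3T3-L1, an established line of mouse fibroblasts that differentiate into fat cells under hormonal induction. Its members were the array entries named mmu-miR-130a, mmu-miR-130b, mmu-miR-301a and mmu-miR-301b (mmu, for mouse, is left off from here on where the meaning is plain), which are 4 of the 611 mouse miRNAs on the array. The study measured miRNAs on single-colour Agilent arrays in 12 samples, in 4 groups of 3. Lithium plus MDI cells received lithium chloride and the differentiation medium MDI. MDI cells received MDI alone, which holds the phosphodiesterase inhibitor 3-isobutyl-1-methylxanthine, dexamethasone and insulin, and are titled mature adipocytes. Lithium cells received lithium chloride at 25 mM alone. Preadipocytes received neither agent and were the untreated control. The protocol gives 3 days of MDI, 2 days of insulin and 2 days of plain medium, ending on day 7, and is given for MDI induction only, with no schedule for the lithium plus MDI, lithium or preadipocyte groups, so time in culture cannot be told apart from treatment. The submitters' design takes lithium as activating and MDI as suppressing WNT signalling. Separate cultures for the 3 samples of a group are not stated, so p-values cover only the spread among the samples at hand, and that spread may be technical.

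A miRNA pairs with messenger RNAs mainly through its seed, bases 2 to 8 from its 5′ end, and lowers their stability and translation. miRNAs that share a seed can act on overlapping sets of messenger RNAs. In human preadipocytes, miR-130a and miR-130b have been reported to repress PPARG, the nuclear receptor that drives fat cell differentiation. These arrays measured neither Pparg nor any other messenger RNA.

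The mature sequences are shown because the shared seed defines the family and the remaining bases are what the probes must tell apart. A mature sequence was found for 3 of the 4 members (RefSeq, GRCm38.p6), and all 3 carry the same seed, printed here in capitals. The array names give no arm of the hairpin, and they were taken to be the 3p strands without a check of probe sequences. miR-721 is added as the only further array entry with that seed.
miR-130a: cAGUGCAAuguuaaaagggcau
miR-130b: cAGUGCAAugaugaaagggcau
miR-301a: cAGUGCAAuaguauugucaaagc
miR-721: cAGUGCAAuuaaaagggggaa
The fourth member is miR-301b. Counted from 1 at the 5′ end, miR-130b differs from miR-130a by the substitutions U11A and A13G, with the base of miR-130a given first, over 22 positions. miR-301a shares the first 9 bases with miR-130a and differs from it at 10 of the 22 positions compared. Of the 1679 mature mouse miRNA names in the RefSeq table, 7 carried this seed and 4 of those were matched to the array. How far a probe also takes up a relative of near-identical sequence was not tested, so the levels of miR-130a and miR-130b are uncertain to that extent.

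The members come from 3 places in the genome (RefSeq, GRCm38.p6). The mature miR-130a lies at chr2:84741116-84741137 on the minus strand, and its gene Mir130a overlaps no other annotated gene. The nearest neighbours are Ypel4, whose bound lies 2460 positions towards lower coordinates, and Gm19426, whose bound lies 987 positions towards higher ones. The mature miR-301a lies at chr11:87113054-87113076 on the plus strand, inside the protein-coding gene Ska2, whose product acts at the mitotic spindle. The mature miR-130b lies at chr16:17124071-17124092 on the minus strand, inside the gene 2610318N02Rik. The gene of miR-301b lies in the same host gene on the same strand at chr16:17124400-17124496, with 257 bases between it and the gene of miR-130b. The table used gives gene bounds only, so exon and intron were not assigned.

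The arrays carried 2 probes each for miR-130a, miR-130b and miR-301a and 4 for miR-301b. A value given as a normalized log2 signal is that of the brighter probe, divided by the 75th percentile of the 181 mouse probes detected on all 12 arrays, with a floor at -4.97. A probe was called detected on an array when over 0.5 of the spots kept for it stood well above background. An array detected at most 178 miRNAs, and 157 miRNAs entered the tests because at least 1 group had their probe detected on each of its 3 arrays. Of the 4 members, miR-130a and miR-301a entered the tests. Of 6 mesenchymal markers fitting the cell line, 6 were detected on at least 1 array and 5 on all 12. Of 25 markers of other cell types only miR-205 and miR-128 were detected on any array and none on all, and miR-128 entered the tests.

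Arrays of one group were not always most alike: 6 of the 12 had a higher mean correlation with another group than with their own, and preadipocytes 3, lithium 1 and lithium plus MDI 3 correlated least with their own groups (mean r of 0.939, 0.942 and 0.924). The 3 preadipocyte arrays and MDI 1 were on slide 1, and the other 8 arrays were on slide 2, each slide with its own scan. Lithium plus MDI and lithium can therefore be compared within slide 2, whereas no slide held both lithium and preadipocyte arrays. The limma test with Benjamini-Hochberg adjustment called 5 of 157 miRNAs (3.18%) between MDI and preadipocytes and 10 (6.37%) between lithium and preadipocytes. Of those 10, 8 were higher and 2 lower, against 4 higher and 74 lower when arrays were scaled by the percentile of all mouse probes. It called 0 of 157 in each of the other 3 comparisons, where the miRNAs past an unadjusted p of 0.05 numbered 48 between lithium plus MDI and lithium, 6 between lithium plus MDI and MDI, and 35 for the interaction. The median of all 157 log2 differences was 0.39 for lithium plus MDI against lithium, 0.26 for the interaction and 0.18 for lithium plus MDI against MDI, so differences in these comparisons are read against those shifts. Comparisons that share a group, such as both with lithium, share its arrays and are not independent.

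miR-130a was detected on all 12 arrays and varied little between them after scaling. Before scaling its brighter probe read between 689 and 1760 intensity units. Its normalized log2 signal was 1.68, 1.46 and 1.88 in lithium plus MDI cells, with a mean of 1.68 ± 0.21 (SD, n = 3). The signal was 1.38, 1.57 and 1.22 in MDI cells, with a mean of 1.39 ± 0.17. It was 1.73, 1.69 and 1.63 in lithium cells, with a mean of 1.68 ± 0.05. It was 1.61, 1.57 and 1.12 in preadipocytes, with a mean of 1.43 ± 0.27. The 3 lithium arrays lay just above all MDI and preadipocyte arrays, and the other pairs of groups overlapped. Across the 12 arrays the SD of miR-130a was 0.217, against a median of 0.500 over the tested miRNAs, and 4 of the 157 had a smaller SD. The 9 or 10 kept spots of its brighter probe on an array had a coefficient of variation of 4.65% to 7.64%.

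As scaled here, no comparison called miR-130a with limma and Benjamini-Hochberg adjustment over 157 miRNAs. Its log2 difference was -0.04 ± 0.24 (SE) for MDI against preadipocytes (adjusted p = 0.908), and its groups overlapped where 26.8% of all tested miRNAs had none. With no scaling between arrays that difference was -0.94 and passed by limma (adjusted p = 0.0259), where 62 of 157 miRNAs passed. As scaled, the log2 difference of miR-130a was 0.25 for lithium against preadipocytes (adjusted p = 0.553). Its groups did not overlap there, as was the case for 29.9% of all tested miRNAs. Over the alternatives the lithium difference ran from -0.65 with the percentile of all mouse probes, through -0.44 with no scaling, to 0.86 with the authors' deposited table, with a lowest adjusted p of 0.0515. For lithium plus MDI against lithium the value was -0.01 (adjusted p = 0.989), with a 95% interval of -0.52 to 0.51. Less the median shift of all miRNAs this difference was -0.40. The log2 difference of miR-130a was 0.28 for lithium plus MDI against MDI (adjusted p = 0.783) and 0.04 for the interaction (adjusted p = 0.955). In the interaction the difference between MDI and preadipocytes is taken from that between lithium plus MDI and lithium. Less the median shifts these 2 values were 0.10 and -0.22. The 2 probes of miR-130a moved together, with a Pearson correlation of 0.978 over the 12 arrays, which share labelling and slide.

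**Figure D1:**
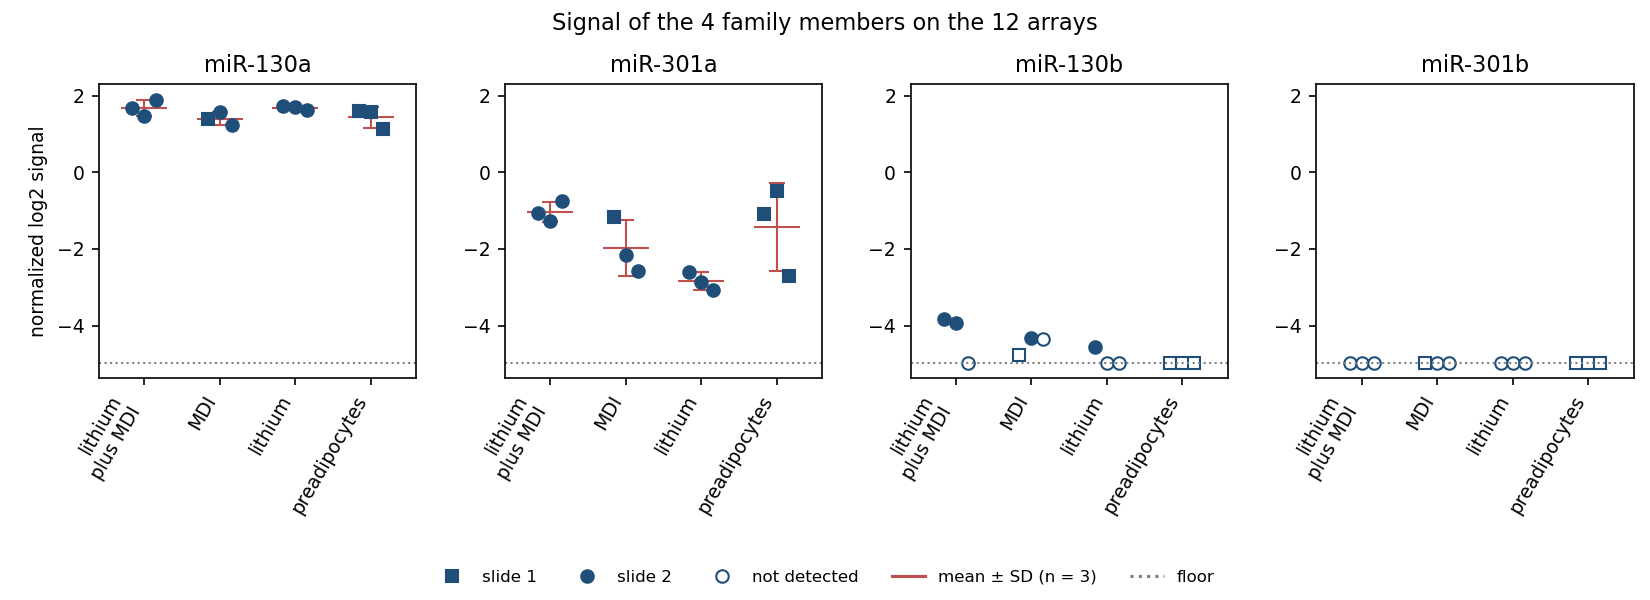
Normalized log2 signal (vertical axis) of the brighter probe of each member on each of the 12 arrays, by group. Squares are arrays of slide 1 and circles those of slide 2, open symbols were not detected, red bars are the mean and SD of 3 arrays for the 2 tested members, and the dotted line is the floor at -4.97. miR-130a stays between 1.12 and 1.88, and miR-301b is at the floor throughout. miR-301a runs from -3.07 to -0.48, with the 3 lithium arrays, preadipocytes 3 and MDI 3 at the low end.

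miR-301a differed more between arrays than its seed relative. It was highest on average in lithium plus MDI cells, at a normalized log2 signal of -1.07, -1.28 and -0.76 (mean -1.04 ± 0.26, SD, n = 3). It was -1.17, -2.17 and -2.58 in MDI cells (mean -1.97 ± 0.72). It was lowest in lithium cells, at -2.60, -2.87 and -3.07 (mean -2.85 ± 0.23). It was -1.08, -0.48 and -2.70 in preadipocytes (mean -1.42 ± 1.15). The 3 lithium plus MDI arrays all lay above the 3 lithium arrays, by a gap wider than the range of either group. The preadipocyte arrays spanned nearly the whole range, because preadipocytes 3, one of the arrays that stood apart, sat among the lithium arrays. From high to low the group means ran lithium plus MDI, preadipocytes, MDI and lithium, and each neighbouring pair in that order overlapped except MDI and lithium, whose nearest arrays were at -2.58 and -2.60.

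Only 7 of the 157 tested miRNAs had a larger SD over the 12 arrays than miR-301a, at 0.929. Within groups its SD was 0.700, against a median of 0.417, and 15 miRNAs had a larger one. On the linear scale its brighter probe read between 49.2 and 412 intensity units, and its 9 or 10 kept spots on an array had a coefficient of variation of 2.66% to 11.9%. Its dimmer probe followed the brighter one with a Pearson correlation of 0.987 over the 12 arrays.

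Lithium plus MDI against lithium asks how the differentiation medium acts on cells that also receive lithium. miR-301a was 3.51-fold higher in lithium plus MDI cells than in lithium cells, a log2 difference of 1.81 ± 0.49 (SE) with a 95% interval of 0.76 to 2.87. By p-value it ranked 5 of 157, and its adjusted p was 0.0728 by limma with Benjamini-Hochberg adjustment, so it did not pass the threshold of 0.05. It was higher in 3 of 3 lithium plus MDI arrays than in any lithium array, and the groups did not overlap for 33.8% of all tested miRNAs. Less the median shift of all miRNAs, the difference was 1.42. The dimmer probe, near the floor in lithium cells, gave a log2 difference of 1.71. Both groups were on slide 2, and the fit of slide 2 alone gave the same difference with an adjusted p of 0.00828. The same difference also passed with the compared groups alone (adjusted p = 0.0217), with slide as a block or without MDI 1 (adjusted p = 0.0368 in both) and without preadipocytes 3 (adjusted p = 0.0187). Leaving out lithium 1 gave 1.94 (adjusted p = 0.0406) and leaving out lithium plus MDI 3 gave 1.68 (adjusted p = 0.0494). Over all 30 alternatives miR-301a passed in 9 and not in 21, with limma adjusted p between 0.00456 and 0.990. The fits that kept 1.81 left the compared arrays as they were and changed the estimate of the spread. Of all 157 miRNAs, 15 passed with slide 2 alone, 1 with the compared groups alone and 24 without preadipocytes 3. With slide as a block or without MDI 1 it was 10 miRNAs, without lithium 1 it was 32 and without lithium plus MDI 3 it was 38.

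Lithium against preadipocytes asks what lithium does on its own. miR-301a averaged -2.85 ± 0.23 in lithium cells and -1.42 ± 1.15 in preadipocytes (SD, n = 3 each), a log2 difference of -1.43 ± 0.49 (SE), with an adjusted p of 0.111 by limma. The groups overlapped through preadipocytes 3, and without that array the difference was -2.07 with an adjusted p of 0.0105. In that setting 33 of all 157 miRNAs passed. No slide held both groups. MDI is the only group on both slides, and its array on slide 1 read -1.17 for miR-301a, against a mean of -2.37 for its other 2 arrays on slide 2. With slide as a block the lithium difference was -0.23 (adjusted p = 0.946), so slide and lithium cannot be told apart for this comparison except through those 3 MDI arrays.

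MDI against preadipocytes asks what the differentiation medium does without lithium. miR-301a averaged -1.97 ± 0.72 in MDI cells and -1.42 ± 1.15 in preadipocytes (SD, n = 3 each), a log2 difference of -0.55 ± 0.49 (SE, adjusted p = 0.489 by limma). Within slide 1 the single MDI array lay 0.25 above the mean of the 3 preadipocyte arrays, so the sign turned with slide as a block. Without preadipocytes 3 the difference was -1.19 and did not pass (adjusted p = 0.0967). For lithium plus MDI against MDI the log2 difference was 0.94 (95% interval -0.12 to 1.99, adjusted p = 0.781 by limma), or 0.76 less the median shift. The groups overlapped through MDI 1, where 12.1% of all tested miRNAs had no overlap. On slide 2, where 2 MDI arrays remain, the 3 lithium plus MDI arrays all lay above them and the difference was 1.34.

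The interaction sets the MDI difference of 1.81 with lithium beside that of -0.55 without it. For miR-301a it was 2.36 ± 0.69 (SE), or 2.10 less the median shift of all miRNAs. Before that subtraction the interaction had a 95% interval of 0.87 to 3.86 and an adjusted p of 0.0797 by limma, ranking 9 of 157 by p-value. It therefore missed the threshold, and the response of miR-301a to MDI was not shown to differ with lithium. Without preadipocytes 3 the interaction was 3.00 and passed (adjusted p = 0.00498), in a setting where 26 of all 157 miRNAs passed. With slide as a block the interaction was 1.56 and did not pass.

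**Figure D2:**
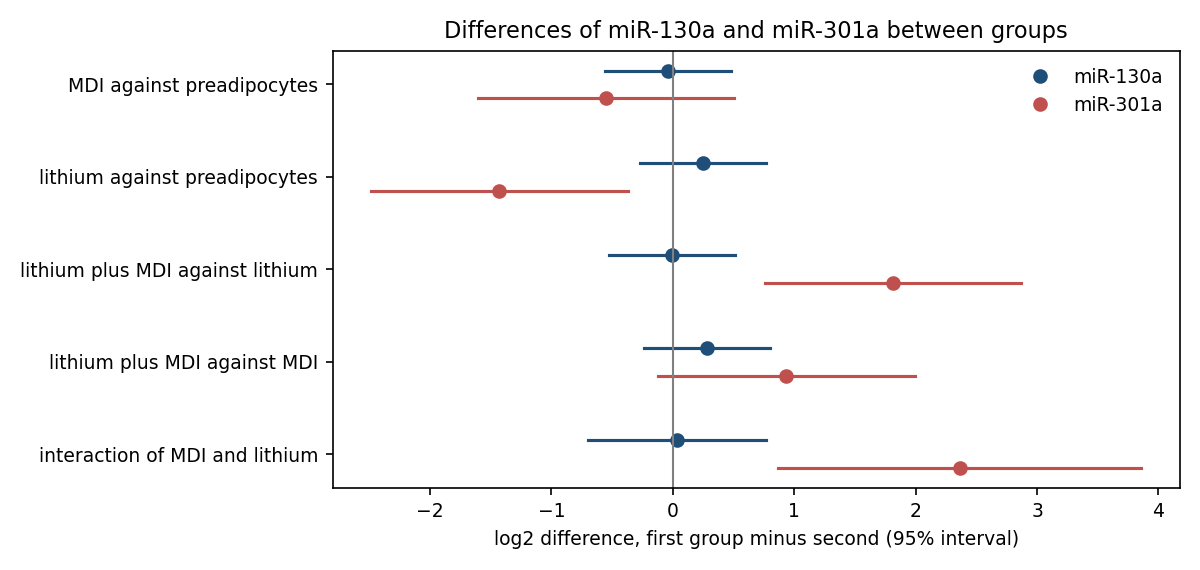
Log2 differences (horizontal axis, first group minus second, or the interaction) of miR-130a in blue and miR-301a in red in the 5 comparisons, from the limma fit of 12 arrays; bars are 95% intervals before adjustment for multiple tests. The intervals of miR-130a all hold 0, and those of miR-301a lie off 0 for lithium against preadipocytes (-1.43), for lithium plus MDI set against lithium (1.81) and for the interaction (2.36), none of which passed after adjustment.

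Since any scaling factor of an array cancels between its own probes, the log2 intensity of miR-301a minus that of miR-130a was also compared between groups, a measure added after the values were seen. Probes differ in brightness for the same amount of RNA, so only the change of this difference between groups is read. It was -2.75, -2.74 and -2.65 in lithium plus MDI cells and -2.55, -3.74 and -3.80 in MDI cells. It was -4.33, -4.56 and -4.70 in lithium cells and -2.69, -2.06 and -3.82 in preadipocytes. The lithium arrays lay below all other 9 arrays. miR-301a relative to miR-130a was 1.82 higher on the log2 scale in lithium plus MDI than in lithium cells and 1.67 lower in lithium cells than in preadipocytes (-1.67). In both comparisons the groups did not overlap, giving p = 0.1 in the two-sided exact permutation test, the smallest that 3 against 3 allows, and an adjusted p of 0.2 over the 4 comparisons. The dimmer probes gave 1.69 and -1.54, with that of miR-301a at only 17.1 to 18.8 intensity units in lithium cells. For lithium plus MDI against MDI the change was 0.65 (exact p = 0.4) and for MDI against preadipocytes it was -0.51 (exact p = 0.7), with overlapping groups in both. A shift in this measure would mean unequal change of miR-301a and miR-130a, without telling which of them changed. No comparison of it passed after adjustment, and slide bears on it as on miR-301a alone.

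**Figure D3:**
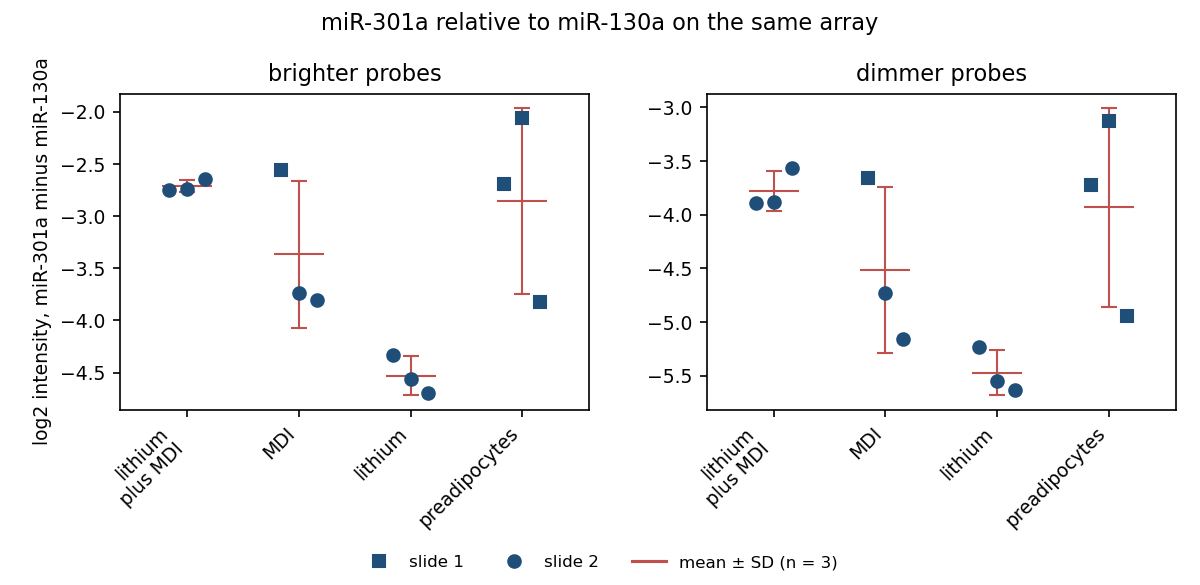
Log2 intensity of miR-301a minus that of miR-130a on the same array (vertical axis) for the brighter and the dimmer probes, by group, with squares for slide 1, circles for slide 2 and red bars for the mean and SD of 3 arrays. For the brighter probes the 3 lithium arrays lie between -4.70 and -4.33, below the 3 lithium plus MDI arrays at -2.75 to -2.65 and below every other array.

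miR-130b stayed close to background. Its brighter probe was detected on 2 of 3 lithium plus MDI arrays, 1 of 3 MDI arrays, 1 of 3 lithium arrays and 0 of 3 preadipocyte arrays, too few to enter the tests. Its background-subtracted intensity was 18.8, 25.8 and 9.60 in lithium plus MDI cells. The probe read 9.76, 19.2 and 16.8 in MDI cells and 13.3, 6.40 and 9.90 in lithium cells. It was 9.21, 9.89 and 8.23 in preadipocytes, all 3 of them not well above background. The scanner's own call per miRNA, which pools the probes, marked miR-130b as detected on 3 of 3 lithium plus MDI, 3 of 3 MDI, 2 of 3 lithium and 0 of 3 preadipocyte arrays. Its normalized log2 signal averaged -4.24 in lithium plus MDI cells, -4.48 in MDI cells and -4.84 in lithium cells, and all 3 preadipocyte arrays lay at the floor of -4.97. No fold is given, since these means rest on the floor and on 1 or 2 detected arrays a group, and the order changed with the background correction. The floor was set after scaling, so MDI 1 at 9.76 units lay above it while preadipocytes 2 at 9.89 units lay at it. With normexp the means were -2.50 in lithium plus MDI, -2.37 in MDI and -2.67 in lithium cells, against -2.33 in preadipocytes. The other probe of miR-130b was detected on no array.

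miR-301b was not well above background on any of the 12 arrays with any of its 4 probes, whose mean intensities ran from -5.36 to 5.39 after background subtraction. miR-130b*, the passenger strand of the miR-130b hairpin, was likewise detected on no array with any of its 4 probes, at -2.28 to 5.57. Neighbouring genes on chromosome 16 therefore gave a signal at the edge of detection for miR-130b and one not well above background for miR-301b, and no fold is given for miR-301b. In these bulk samples, fewer cells holding a miRNA and less of it per cell cannot be told apart, for any member.

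miR-721, from chr5:136375777-136375797 on the minus strand, shares the seed and was irregular between replicates. Its brightest probe read 11.5, 305 and 16.7 intensity units in lithium plus MDI cells and 1.28, 23.4 and 113 in MDI cells. It read 9.54, 13.5 and 11.6 in lithium cells and 9.06, 6.69 and 17.6 in preadipocytes. The high values were on single arrays, lithium plus MDI 2 and MDI 3, and by the spot rule used here for tests its brightest probe was detected on 2 lithium plus MDI, 2 MDI, 1 lithium and 1 preadipocyte array, so it was not tested. The scanner's own call marked it as detected on 3 of 3 lithium plus MDI, 2 of 3 MDI, 3 of 3 lithium and 1 of 3 preadipocyte arrays.

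The family was set beside 11 miRNAs reported to act on Pparg or to inhibit fat cell differentiation, of which 7 were tested. With limma and Benjamini-Hochberg adjustment 1 of the 7 passed in lithium against preadipocytes, where 6.37% of all tested miRNAs did, and none in the other 4 comparisons. This was miR-155, lower in lithium cells than in preadipocytes by a log2 difference of -1.42 (adjusted p = 0.0382), with values of -1.87, -2.18 and -1.40 in lithium cells and -0.15, 0.30 and -1.34 in preadipocytes. No slide held both groups, and with slide as a block the difference was -1.49 and did not pass (adjusted p = 0.363). The call held in 14 of 29 alternatives, with adjusted p between 0.00116 and 0.822, and was lost without preadipocytes 1, preadipocytes 2, lithium 2 or lithium 3, each MDI array or lithium plus MDI 1. miR-155 is best known from immune cells and has been reported to restrain fat cell differentiation. For lithium plus MDI against lithium all 7 differences were positive, with a median of 0.92 against 0.39 over all 157 miRNAs, of which 112 were positive, and none passed. The list was chosen with earlier results of these data known, and the 7 were measured on the same arrays. Their signs are therefore not independent and were not tested as a set. The signs were positive for 5 of 7 in MDI against preadipocytes (89 of 157 over all) and 1 of 7 in lithium against preadipocytes (71 of 157). They were positive for 7 of 7 in lithium plus MDI against MDI, where 114 of all 157 were positive too.

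miR-27a and miR-27b, a pair that shares a seed and has been reported to repress Pparg, were unlike each other. miR-27a was at 2.38, 2.04 and 2.50 in lithium plus MDI cells, 2.12, 1.72 and 1.77 in MDI cells, 1.77, 1.55 and 1.55 in lithium cells and 0.94, 1.06 and 1.01 in preadipocytes. Every MDI and every lithium array exceeded every preadipocyte array, in comparisons where 26.8% and 29.9% of all tested miRNAs did not overlap. The preadipocyte arrays were all on slide 1, with MDI 1 as the only treated array there. The log2 difference of miR-27a against preadipocytes was 0.87 for MDI (adjusted p = 0.0595) and 0.62 for lithium (adjusted p = 0.124) by limma. For miR-27a the difference between lithium plus MDI and lithium was 0.68 (adjusted p = 0.0849) and that between lithium plus MDI and MDI was 0.44 (adjusted p = 0.781). miR-27b was at -0.15, -0.29 and -0.82 in lithium plus MDI cells, -0.40, -1.63 and -1.56 in MDI cells, -1.29, -2.36 and -2.32 in lithium cells and -0.87, -0.54 and -2.83 in preadipocytes. Its lowest values were on preadipocytes 3, lithium 2 and lithium 3. The log2 difference of miR-27b was 1.57 for lithium plus MDI against lithium (adjusted p = 0.0849) and -0.57 for lithium against preadipocytes (adjusted p = 0.544). It was 0.22 for MDI against preadipocytes (adjusted p = 0.831) and 0.78 for lithium plus MDI against MDI (adjusted p = 0.783), and the interaction was 1.35 for miR-27b (adjusted p = 0.341) and -0.18 for miR-27a (adjusted p = 0.773).

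In miR-148a, miR-148b and miR-152 the letters that open the family's mature sequences, bases 1 to 7, stand at bases 2 to 8, so their seed overlaps that of the family without being the same. All 3 were tested and none passed. Their median log2 difference was 0.34 for lithium plus MDI against lithium, against 0.39 over all miRNAs, and -0.36 for MDI against preadipocytes, against 0.10 over all. It was 0.71 for lithium plus MDI against MDI, against 0.18 over all, where none of the 3 overlapped between groups (12.1% of all tested miRNAs did not). It was -0.25 for lithium against preadipocytes, against -0.07 over all, and 0.68 for the interaction, against 0.26.

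Across the 12 arrays the tested miRNAs outside the family whose normalized log2 signal was most like that of miR-301a were miR-532-5p, with a Pearson r of 0.911, miR-324-5p with 0.897 and miR-128 with 0.878. These correlations are descriptions over 12 arrays that share slides and treatments, and all 3 miRNAs are dim. miR-532-5p averaged -3.66 ± 0.13 in lithium plus MDI cells and -4.41 ± 0.05 in lithium cells (SD, n = 3 each). miR-324-5p averaged -2.62 ± 0.34 in lithium plus MDI cells and -3.26 ± 0.27 in lithium cells, and miR-128 lay at the floor on all 3 lithium arrays. For miR-130a the closest were miR-328 (r = 0.588), miR-24-2* (r = 0.531) and miR-29c (r = 0.525), much weaker likenesses for a miRNA that barely varied after scaling. Between miR-130a and miR-301a, r was 0.273.

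**Figure D4:**
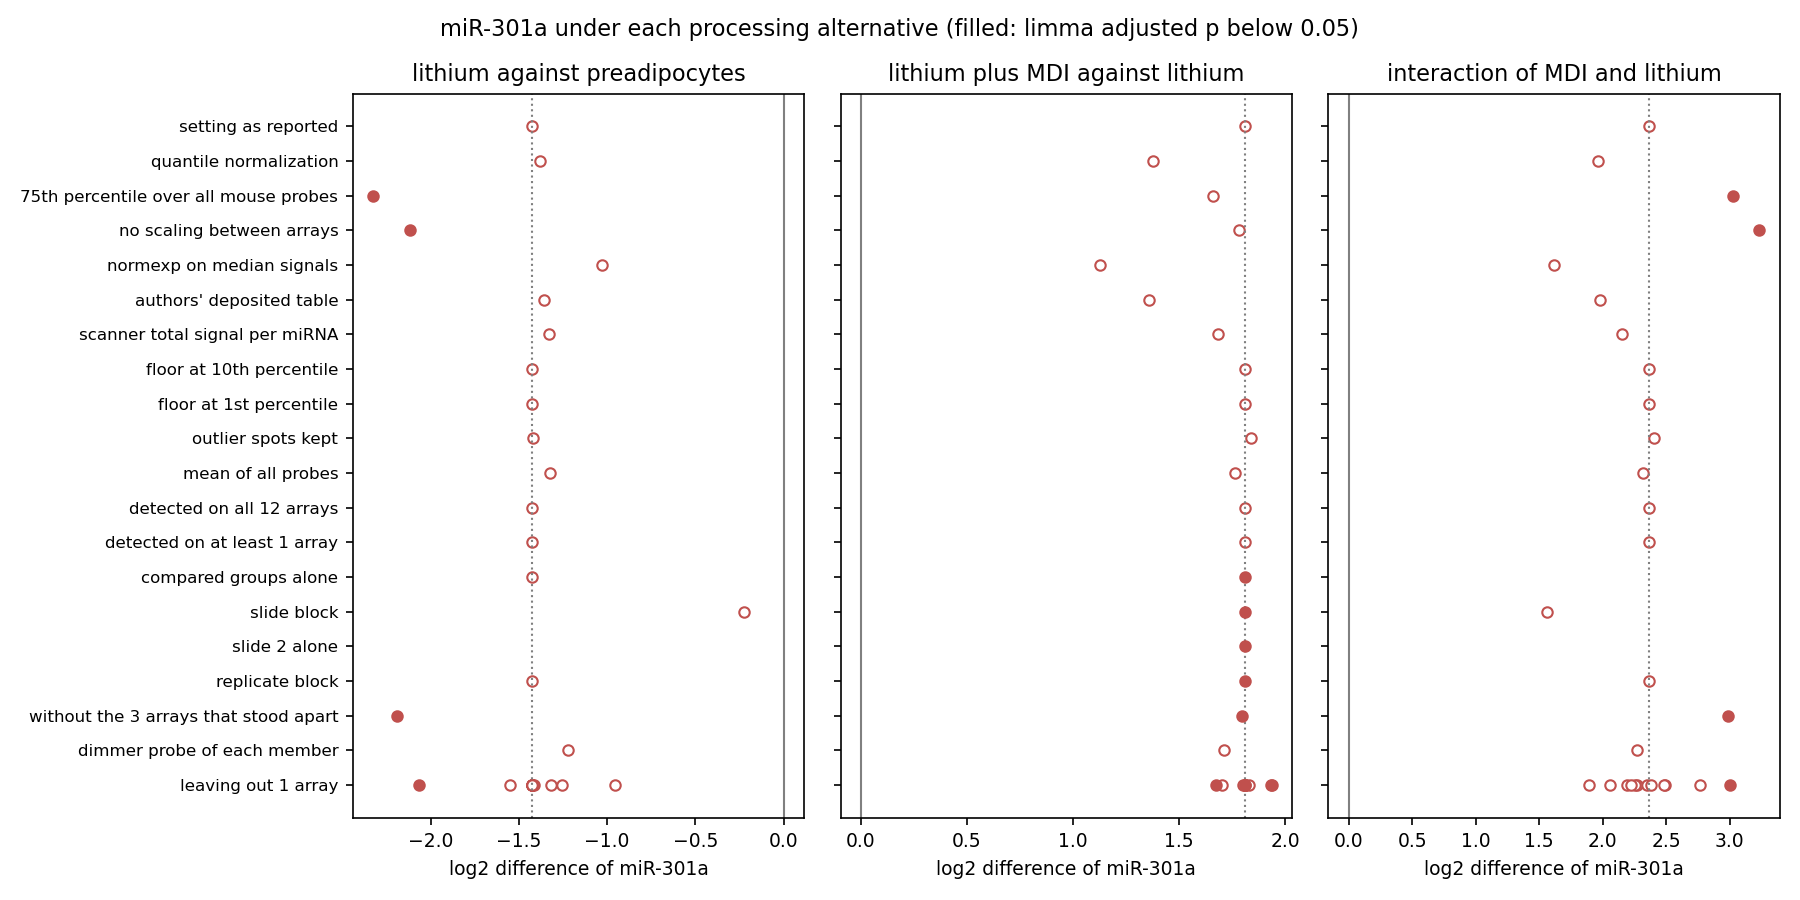
Log2 difference of miR-301a (horizontal axes) in 3 comparisons under each processing alternative (rows), filled where the limma adjusted p was below 0.05; the dotted line is the value as reported and the grey line is 0. In lithium plus MDI against lithium all values lie between 1.13 and 1.94, and in lithium against preadipocytes the slide block brings the value to -0.23.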

How the data were processed

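Single-colour arrays of 12 samples were read from the scanner files. The deposited spot intensity is the background-subtracted signal of Agilent Feature Extraction, with no scaling across arrays, per the file headers; these name version 10.5.1.1, and the submitters' processing notes name 9.5.3. The authors also deposited a table of log2 values whose columns share a maximum of 15.05 and correlate at r of 0.991 or above with the log2 total signal of the scanner; its processing is not given in the sources used here, and it served as an alternative. Outlier spots were left out, the spots of a probe averaged, and each array divided by its 75th percentile over 181 probes. A floor was set at the 5th percentile of detected scaled values before log2. limma 3.58.1 in R 4.3.3 fitted 4 group means to all 12 arrays with no block (two-sided, threshold 0.05) and was first tested on simulated data. Precision is limited by the number of arrays. Named miRNAs were the 4 members, their passenger strands, same-seed entries, the 3 most correlated miRNAs per tested member, and the 2 context lists. Members and lists were chosen with earlier results of these data known. The deviations of same-numbered samples correlated at r of -0.48 to 0.47, with means of 0.21, -0.16 and 0.14 for numbers 1, 2 and 3. These few values cannot tell whether such samples share an effect. The labels state no pairs, so the numbers were not taken as pairs, and a replicate block was fitted as an alternative. Alternatives covered scaling, background, floor, filters, probes, blocks and left-out arrays, and 2 were added after seeing the data, the dimmer probes and the difference within an array. Figures were drawn with matplotlib 3.10.9.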

Additional observations from a re-analysis of the deposited data

Results flagged for a closer look

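Entries outside the tests gave signal above every preadipocyte array after scaling, where those arrays all lay at the floor of -4.97 in normalized log2 signal. miR-130b was detected above that level on lithium plus MDI 1 (-3.82), lithium plus MDI 2 (-3.95), MDI 2 (-4.32) and lithium 1 (-4.57). miR-721 was detected above it on lithium plus MDI 2 (-0.38), lithium plus MDI 3 (-4.83), MDI 2 (-4.03), MDI 3 (-1.60) and lithium 2 (-4.92). It was also detected on preadipocytes 3, at 17.6 intensity units before scaling, above the 16.7 of lithium plus MDI 3 and the 13.5 of lithium 2. Whether these differences are larger than the spread between replicates was not tested for miR-721, and no comparison of miR-130b passed when it was added to the fit (adjusted p of 0.196 to 0.912), in which its values were set largely by the floor. Groups of 3 are too small for a test of single outlying samples.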

How the results depend on the processing

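miR-301a kept its sign in all alternatives of 4 of the 5 comparisons, the exception being MDI against preadipocytes with slide as a block (0.25). For lithium plus MDI against lithium it lay between 1.13 and 1.94. It passed at 1.81, so that 1 member was called, with compared groups alone (1 of all 157 miRNAs called) and slide as a block (10 of 157). It also passed at 1.81 with slide 2 alone (15 of 157) and the replicate block (16 of 157). Without the 3 arrays that stood apart it passed at 1.80 (88 of 157). Leaving out 1 array gave 1.68 to 1.94 with 4 of 12 past the threshold (0 or 1 member called). Those were without lithium 1, lithium plus MDI 3, MDI 1 and preadipocytes 3, where 32, 38, 10 and 24 of 157 passed. For lithium against preadipocytes it passed, again as 1 member, with the percentile of all mouse probes (-2.32, where 78 of 157 miRNAs passed). It also passed with no scaling (-2.12, 74 of 157) and without those 3 arrays (-2.19, 83 of 157). Leaving out 1 array gave -2.07 to -0.96 and 1 pass, without preadipocytes 3, where 33 of 157 passed. For MDI against preadipocytes it passed with no scaling (-1.45), where 2 members were called among 62 of 157 miRNAs. It also passed without those 3 arrays (-1.19), where 1 member was called among 38 of 157. The interaction passed, 1 member each, with the percentile of all mouse probes (3.02, where 20 of 157 miRNAs passed) and no scaling (3.23, 61 of 157). It also passed without those 3 arrays (2.99, 69 of 157). Leaving out 1 array gave 1.89 to 3.00 and 1 pass, without preadipocytes 3, where 26 of 157 passed. The 3 arrays were chosen for being least like their groups, so leaving them out lowers the spread by construction. miR-130a changed sign in 4 comparisons. For MDI against preadipocytes it was 0.12 with quantile normalization, 0.21 with normexp, 0.27 with the authors' deposited table, 0.0673 with the scanner's total signal, 0.0236 with the dimmer probe, -0.197 to 0.0459 leaving out 1 array, and passed with no scaling (-0.94). For lithium against preadipocytes it was -0.65 with the percentile of all mouse probes, -0.44 with no scaling and 0.86 with the authors' deposited table. For lithium plus MDI against lithium it was -0.58 with the authors' deposited table, 0.0121 with outlier spots kept, 0.00767 with the mean of all probes, 0.0207 with the dimmer probe and -0.11 to 0.10 leaving out 1 array. Its interaction was 0.90 with no scaling, -0.46 with quantile normalization, -0.22 with normexp, -0.85 with the authors' deposited table, -0.17 with the scanner's total signal, -0.00290 with the dimmer probe and -0.0690 to 0.192 leaving out 1 array. In lithium plus MDI against MDI no member changed sign or passed in any alternative. The replicate block changed no other call of a member, and with it 16 of all 157 miRNAs passed in lithium plus MDI against lithium. Over all 157 miRNAs the calls ran from 0 to 62 for MDI against preadipocytes (5 as reported), 0 to 83 for lithium against preadipocytes (10), 0 to 88 for lithium plus MDI against lithium (0) and 0 to 69 for the interaction (0), the highest without the 3 arrays that stood apart except for MDI, where it was with no scaling. Scaling moved the median of all miRNAs for lithium against preadipocytes to -0.90 with the percentile of all mouse probes and -0.69 with none. It moved the median for the interaction to 0.89 and 1.04 in the same settings. Of 80 group levels recomputed as distances from the mean of the groups, 66 moved by less than 1 SD. The causes of these changes were not tested. With 3 arrays a group, signals near background, as for miR-130b and miR-301b, allow no comparison of levels.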
